A study of Mus musculus with 7 samples.

Results

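The HDGF family is described here by 4 genes, *Hdgf*, *Hdgfl2*, *Hdgfl3* and *Psip1*, whose rows were taken by symbol from 25033 gene rows in each of 7 count files. RNA was sequenced from lineage-depleted (lin-) bone marrow, which is freed of mature blood cells by their surface markers. There were 3 wild type (WT, Hrp2+/+) and 4 *HRP-2* knockout (KO, Hrp2-/-) mice, each 6 to 8 weeks old and each numbered as a biological replicate. Both genotypes were C57BL/6N mice of the Hdgfrp2 tm1b line, and no treatment was given. The tm1b form is a systemic allele, a reporter-tagged deletion present in every cell of the animal and not only in marrow, and it was studied as 1 line. The comparison asks whether any paralog is raised where *Hdgfl2*, the gene for HRP-2, is lost, and how much of the family each gene makes up.

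HDGF and its relatives share an N-terminal PWWP domain, a fold that reads methylated lysines of histone tails, above all H3K36 methylation on the bodies of transcribed genes. *Psip1* encodes LEDGF and *Hdgfl2* encodes HRP-2, and these are the members that also carry an integrase binding domain (IBD) near the C-terminus. The IBD holds partners such as the MLL-menin complex and HIV integrase, so that LEDGF/p75 ties them to chromatin. *Hdgf* encodes the founding member, a nuclear protein first isolated as a growth factor from hepatoma cells, and *Hdgfl3* encodes the related HRP-3. In bone marrow LEDGF/p75 is known above all as a cofactor of MLL fusions in leukemia.

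The libraries read the 3′ end of each transcript with 75 bp reads, so stretches of 75 bases show how far the paralogs can be told apart. The stretches below are the 75 coding bases at which the 4 genes are most alike, in the part that encodes the PWWP domain, with capitals at the 49 bases that all 4 share. The sequences are GENCODE M21 transcripts on GRCm38.
Hdgf: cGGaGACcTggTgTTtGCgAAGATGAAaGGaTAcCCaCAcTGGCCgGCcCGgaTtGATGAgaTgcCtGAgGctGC
Hdgfl2: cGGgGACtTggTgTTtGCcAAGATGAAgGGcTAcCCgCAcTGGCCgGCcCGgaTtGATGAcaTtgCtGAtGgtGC
Hdgfl3: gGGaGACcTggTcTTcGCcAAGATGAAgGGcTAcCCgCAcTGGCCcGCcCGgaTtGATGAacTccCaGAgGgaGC
Psip1: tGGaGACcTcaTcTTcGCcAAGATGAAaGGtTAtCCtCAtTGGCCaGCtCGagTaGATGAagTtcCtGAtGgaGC
Each stretch is split between a pair of coding exons, and in all 4 genes the split falls at the same place, after 52 bases and before the last 23. For *Hdgf*, on the plus strand, these are chr3:87906663-87906714 and chr3:87913091-87913113, and for *Hdgfl2*, also on the plus strand, chr17:56079775-56079826 and chr17:56082100-56082122. For *Hdgfl3*, on the minus strand, they are chr7:81933939-81933990 and chr7:81905614-81905636, and for *Psip1*, also on the minus strand, chr4:83485717-83485768 and chr4:83482511-83482533.

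*Hdgfl2* and *Psip1* share a second alike stretch, within the part that encodes the IBD. It is shown because the IBD sets these genes apart from *Hdgf* and *Hdgfl3*. Capitals mark the 52 of 75 bases that *Hdgfl2* and *Psip1* share.
Hdgfl2: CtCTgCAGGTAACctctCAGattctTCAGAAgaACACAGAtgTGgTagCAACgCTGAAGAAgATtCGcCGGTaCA
Psip1: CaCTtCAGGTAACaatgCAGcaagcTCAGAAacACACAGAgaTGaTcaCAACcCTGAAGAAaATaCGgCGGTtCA
In *Hdgfl2* the stretch covers coding bases 1529 to 1603 of 2034 (chr17:56099014-56099075 and chr17:56099177-56099189, plus strand). In *Psip1* it covers coding bases 1139 to 1213 of 1584 (chr4:83460154-83460215 and chr4:83460045-83460057, minus strand). Here too the exon border falls at the same place, after 62 bases. Among the 6 pairs of family genes, no stretch of 75 bases was identical between their coding-longest transcripts. The closest ungapped pair, between *Hdgfl2* and *Hdgf* or *Hdgfl3*, differed at 11 bases. In the last 1000 bases of these transcripts, where 3′ end reads are drawn from, the closest pair was *Hdgfl2* with *Psip1*. It differed at 35 of 75 bases. Other annotated 3′ ends of *Hdgf*, *Hdgfl3* and *Psip1* were not compared. Among the transcripts of all other genes, 1 shared whole 75-base stretches with a family gene, the *Psip1* pseudogene *Gm15773* with 41 of them, which is not a row of the files.

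The depth was 3525665 to 4490287 reads on genes in WT and 4355974 to 5605158 in KO libraries. The level is given as CPM, the read number scaled to library size with edgeR's TMM factors, and 3 reads, used as the floor, equal 0.559 to 0.838 CPM. Intervals on reads of a single mouse cover counting error only. The summed level of 9 progenitor markers was between 8481 and 11802 CPM, against 62.6 to 107.2 CPM for 7 markers of mature T and B cells. *Mpo* alone, a granule gene of myeloid progenitors, gave 4735 to 6793 CPM of the progenitor sum. Summed CPM of 5 macrophage markers was lower in every KO mouse (187.3 to 237.3) than in every WT mouse (270.9 to 339.9). *Vcam1*, at 124.6 to 226.2 CPM, gave most of this sum. *Adgre1* overlapped, at 7.22 to 12.5 CPM in WT and 8.72 to 11.2 CPM in KO mice. Of the 5 markers, 0 had an adjusted p under 0.25, and 5.16% of all genes tested did not overlap between the genotypes. The 5 mature granulocyte markers were present in every mouse and reached 4107 CPM in KO replicate 3 against 1014 to 2074 in the other mice. Of 5 erythroid markers the 3 hemoglobin rows stood at 0 in every mouse. KO replicate 3 also stood apart in *Xist*, 0.559 CPM against 228.5 to 302.0 in the other mice, and in the Y-linked *Ddx3y*, 104.2 CPM against 0.775 or less. The part of these differences in the values below was not tested, and fewer cells of a type cannot be told apart from less RNA per cell in bulk samples.

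*Hdgfl2*, the targeted gene, lies on chromosome 17 of GRCm38 from 56079634 to 56100607 (ENSMUSG00000002833.11). Its reads numbered 228, 156 and 168 in WT replicates 1 to 3, and 13, 3, 8 and 2 in KO replicates 1 to 4. At the mean WT level the KO libraries would have held 237, 222, 247 and 185 reads. Thus the residual level was 5.48% of WT in KO replicate 1 (Poisson 95% interval 2.92 to 9.37), 1.35% in replicate 2 (0.279 to 3.95), 3.24% in replicate 3 (1.40 to 6.39) and 1.08% in replicate 4 (0.131 to 3.90). The intervals of all 4 KO mice overlapped, and none reached 10% of WT. Over the 4 mice together 26 reads gave 2.92% of WT (interval 1.91 to 4.28), a level 34.3-fold lower. This pooled interval leaves out the spread between mice and takes the WT mean as exact.

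The loss passed the test. The log2 fold change was −5.09 (95% interval −5.80 to −4.37, standard error 0.34, adjusted p = 1.38e-07 by edgeR's quasi-likelihood test), and all 4 KO mice lay below all 3 WT mice. Which exons the allele lacks is not given in the sources used here, and 3′ end reads count the transcripts that reach the end of the gene. They therefore do not check the deleted exons themselves. *Plin4*, on the opposite strand, overlaps the last 17 bp of *Hdgfl2*, and it had 0 reads in every mouse.

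None of the 3 paralogs was called higher in KO cells. Of the 4 family genes, 1 had an adjusted p under 0.25, the threshold of the study, and that gene was *Hdgfl2*. Over the 11265 genes tested, 0.0178% were called, 0.00888% higher and 0.00888% lower in KO cells. The other called gene, *Tspoap1*, was higher in KO cells and is not of the family. The groups overlapped for each paralog, while CPM did not overlap between the genotypes for 5.16% of all genes tested. The edgeR adjusted p was 0.999 for *Hdgf*, *Psip1* and *Hdgfl3* alike.

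*Psip1*, the paralog that shares both domains with HRP-2, lies on chromosome 4 from 83455680 to 83486459 (ENSMUSG00000028484.16). It stood at 82.3, 97.8 and 91.7 CPM in WT replicates 1 to 3 and at 77.0, 102.8, 94.9 and 102.6 CPM in KO replicates 1 to 4. The lowest and the highest of the 7 values were both from KO mice, and the groups overlapped. The means were 90.6 ± 7.80 CPM (SD, n = 3) and 94.3 ± 12.2 CPM (SD, n = 4). The log2 fold change was 0.06 (95% interval −0.26 to 0.37, standard error 0.15), so the interval ran from a change of −16.2% to an increase of 29.5% (p = 0.657, exact permutation of log2(CPM + 1) over the 35 splits of 7 mice, two-sided). Rises within this interval are not excluded by these mice. *Psip1* has 5 coding transcripts with 3 ends more than 100 bases apart, so the transcripts of LEDGF/p75 and of the shorter p52 are added together in its row. Its 3′ part overlaps *Snapc3* on the other strand, which stood at 16.4 to 26.9 CPM in the 7 mice.

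*Hdgf* lies on chromosome 3 from 87906321 to 87916132 (ENSMUSG00000004897.16) and had the highest level of the family. It stood at 530.5, 584.0 and 557.4 CPM in WT replicates 1 to 3. In KO replicates 1 to 4 it stood at 578.3, 580.8, 599.1 and 567.7 CPM. WT replicate 1 was the lowest and KO replicate 3 the highest, and WT replicate 2 lay above 3 of the 4 KO mice. The means were 557.3 ± 26.8 CPM (SD, n = 3) and 581.5 ± 13.0 CPM (SD, n = 4). The log2 fold change was 0.06 (95% interval −0.19 to 0.31, standard error 0.12), from a change of −12.3% to an increase of 24.1%. The exact permutation test gave p = 0.2, two-sided, where the smallest that 35 splits allow is 0.0286.

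*Hdgfl3* lies on chromosome 7 from 81881251 to 81934473 (ENSMUSG00000025104.13). It stood at 15.1, 13.97 and 17.2 CPM in WT replicates 1 to 3, from 69, 50 and 65 reads. In KO replicates 1 to 4 it stood at 14.5, 12.4, 11.9 and 7.95 CPM, from 75, 60, 64 and 32 reads. The KO values reached below every WT value in 3 of 4 mice, with KO replicate 1 between WT replicates 1 and 2. The log2 fold change was −0.39 (95% interval −0.97 to 0.18, standard error 0.27), from a change of −48.8% to an increase of 13.6% (two-sided exact permutation test, p = 0.0857). The difference did not pass the test, and its direction was opposite to a rise. KO replicate 4 had the lowest value, and without it the log2 fold change was −0.25. *Tm6sf1*, on the opposite strand, overlaps the 3′ end of *Hdgfl3* by 3184 bp and stood at 1.96 to 2.39 CPM in WT and 2.61 to 8.14 CPM in KO mice. It was named after its values were seen (log2 fold change 1.22, adjusted p = 0.999 by the same edgeR test). The strand that was counted is not stated, so reads of such partners cannot be told apart.

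**Figure D1:**
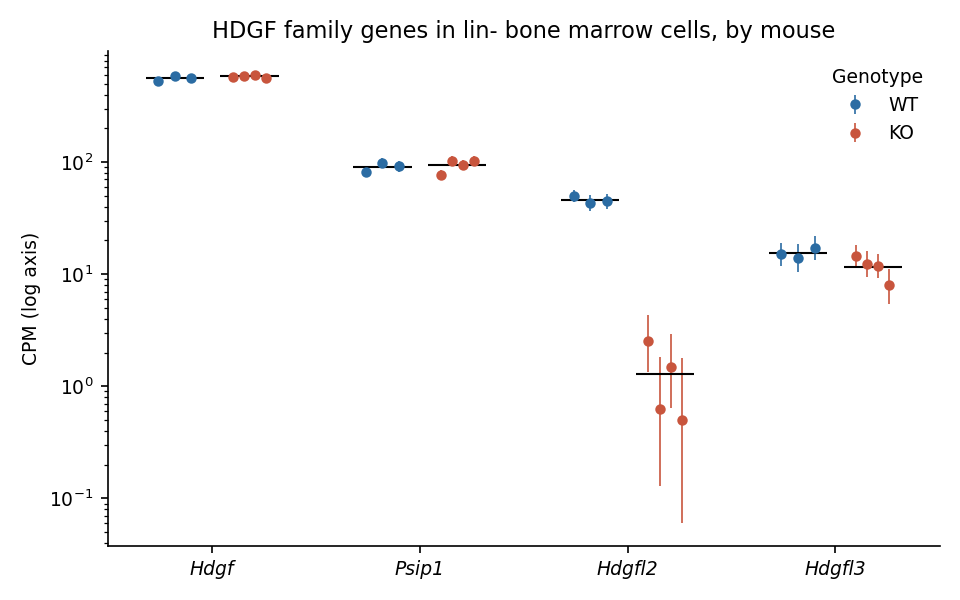
CPM of the 4 family genes by mouse on a log axis, with WT mice in blue and KO mice in red. Bars are Poisson 95% intervals for counting error and black lines are group means. *Hdgfl2* falls from 43.6 to 49.9 CPM in WT mice to 0.497 to 2.52 CPM in KO mice, while the groups overlap for the other 3 genes.

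*Hdgfl1*, the remaining gene of the family, which is known from testis and encodes HRP-1, had 0 reads in all 7 mice. At these depths its level was below the floor in every library. No switch to this gene was thus detectable in KO cells.

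The family total was set against the CPM that *Hdgfl2* lost. *Hdgfl2* fell by 44.7 CPM between the group means. The 3 paralogs together stood at 627.8, 695.8 and 666.3 CPM in WT replicates 1 to 3 and at 669.8, 696.1, 705.9 and 678.3 CPM in KO replicates 1 to 4. The means were 663.3 ± 34.1 (SD, n = 3) and 687.5 ± 16.4 (SD, n = 4), and the groups overlapped. The means differed by 24.2 CPM, less than the SD of the WT mice but more than that of the KO mice. This was also less than the 44.7 CPM that *Hdgfl2* lost. The difference was 6.46 CPM without WT replicate 1 and 40.4 CPM without WT replicate 2. Of this difference *Hdgf* gave 24.2 CPM, *Psip1* 3.74 CPM and *Hdgfl3* −3.72 CPM. With *Hdgfl2* included the total was 709.3 ± 30.8 CPM (SD, n = 3) in WT and 688.8 ± 16.1 CPM (SD, n = 4) in KO mice, a difference of −20.5 CPM that became −36.3 without WT replicate 1 and −5.51 without WT replicate 2. No test was run on these sums, as they are scores over the family.

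**Figure D2:**
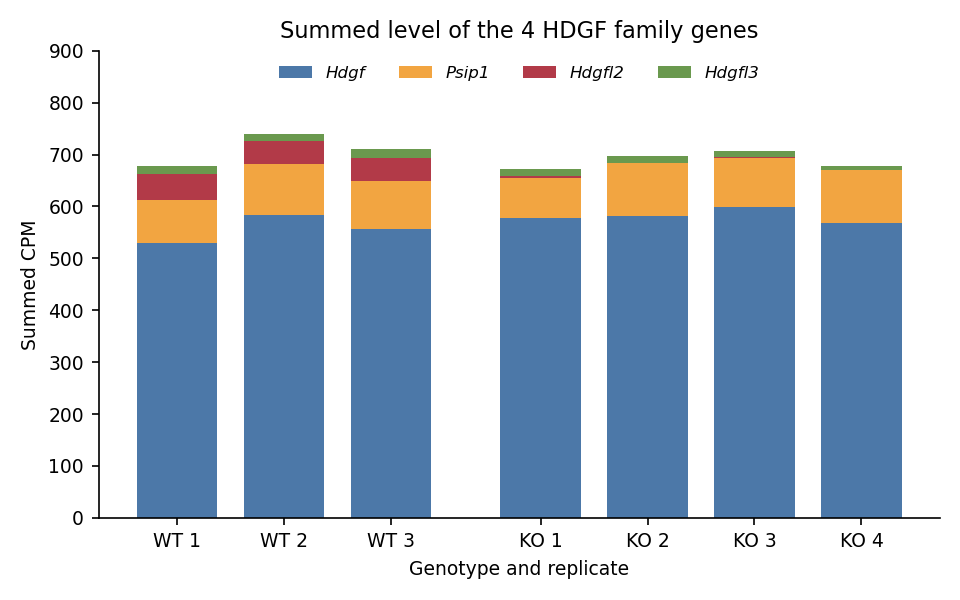
Summed CPM of the 4 family genes in each mouse, on an axis from 0, with a colour for each gene. The totals run from 672.3 to 739.3 CPM, and the *Hdgfl2* segment seen in the 3 WT mice is all but gone in the 4 KO mice.

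The genes with an IBD, *Psip1* and *Hdgfl2*, were also summed. As the *Psip1* row also holds p52, this sum is of gene rows and not of LEDGF/p75 and HRP-2 transcripts alone. The summed level was 132.2, 141.3 and 136.2 CPM in WT replicates 1 to 3. In KO replicates 1 to 4 it was 79.5, 103.4, 96.4 and 103.1 CPM, lower in all 4 than in any WT mouse. The WT mean was 136.6 ± 4.58 CPM (SD, n = 3), and the KO mean, 95.6 ± 11.2 CPM (SD, n = 4), was 0.700 of it. *Psip1* made up 66.2 ± 3.58% (SD, n = 3) of this sum in WT and 98.5 ± 1.24% (SD, n = 4) in KO mice. The loss of *Hdgfl2* fixes both differences: the sum differed by −40.97 CPM, *Hdgfl2* alone by −44.7 CPM, and *Psip1* overlapped between the genotypes.

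In WT cells the order of the levels was *Hdgf*, *Psip1*, *Hdgfl2* and *Hdgfl3*, and no neighbours in this order overlapped. Because the kit yields 1 fragment per transcript, CPM was compared without a length term, and the ratio per length of the longest coding transcript is given beside it. *Hdgf* was 6.17 ± 0.248-fold (SD, n = 3) above *Psip1*, or 8.93-fold per length. *Psip1* was 1.98 ± 0.304-fold (SD, n = 3) above *Hdgfl2*, or 1.39-fold per length. *Hdgfl2* was 3.00 ± 0.374-fold (SD, n = 3) above *Hdgfl3*, or 7.79-fold per length. The length used for *Hdgfl3* was 5887 bases, against 2865 in its coding-longest transcript, so its per-length values depend on this choice. In KO cells *Hdgfl2* was the lowest of the 4, with every value below the lowest of *Hdgfl3*. Among the 11265 genes tested, *Hdgf* ranked 180 by mean CPM over the 7 mice and *Psip1* 2067, whereas *Hdgfl3* ranked 7795.

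As a share of the reads on the 4 family genes, *Hdgf* took 78.6 ± 0.385% (SD, n = 3) in WT cells, *Psip1* 12.8 ± 0.555%, *Hdgfl2* 6.51 ± 0.764% and *Hdgfl3* 2.18 ± 0.271%. These shares rest on 2647 to 3097 reads per WT mouse. For example, the *Hdgfl2* share was 7.36% in WT replicate 1 (Wilson 95% interval 6.49 to 8.34) and 5.89% in WT replicate 2 (5.06 to 6.86). In KO cells the shares were 84.4 ± 1.20% (SD, n = 4) for *Hdgf*, 13.7 ± 1.66% for *Psip1*, 1.70 ± 0.408% for *Hdgfl3* and 0.187 ± 0.139% for *Hdgfl2*, the last being 0.124% without KO replicate 1. The rise of the *Hdgf* share carries no test, since the loss of *Hdgfl2* reads by itself makes the total smaller and moves the other shares. Per length, *Hdgf* took 83.0% in WT and 89.1% in KO cells, and *Hdgfl3* took 0.879% and 0.685%.

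Within the 3 paralogs, where *Hdgfl2* has no part, the shares were compared by exact permutation tests of their log2 odds. The *Psip1* share was 13.1%, 14.1% and 13.8% in WT replicates 1 to 3 and 11.5%, 14.8%, 13.4% and 15.1% in KO replicates 1 to 4. KO replicate 1, at 11.5% (Wilson 95% interval 10.5 to 12.6), lay below the interval of KO replicate 4, 13.8 to 16.5. Thus the KO mice spread to both sides of the WT mice. The *Psip1* share was 13.6 ± 0.484% (SD, n = 3) in WT and 13.7 ± 1.65% (SD, n = 4) in KO cells (two-sided exact permutation test, p = 1.00). For *Hdgf* the shares were 84.03 ± 0.425% (SD, n = 3) and 84.6 ± 1.32% (SD, n = 4), with p = 0.571 by the same exact permutation test. For *Hdgfl3* they were 2.33 ± 0.296% (SD, n = 3) and 1.71 ± 0.411% (SD, n = 4), with p = 0.114 by the same exact permutation test. None of the 3 tests passed 0.05.

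**Figure D3:**
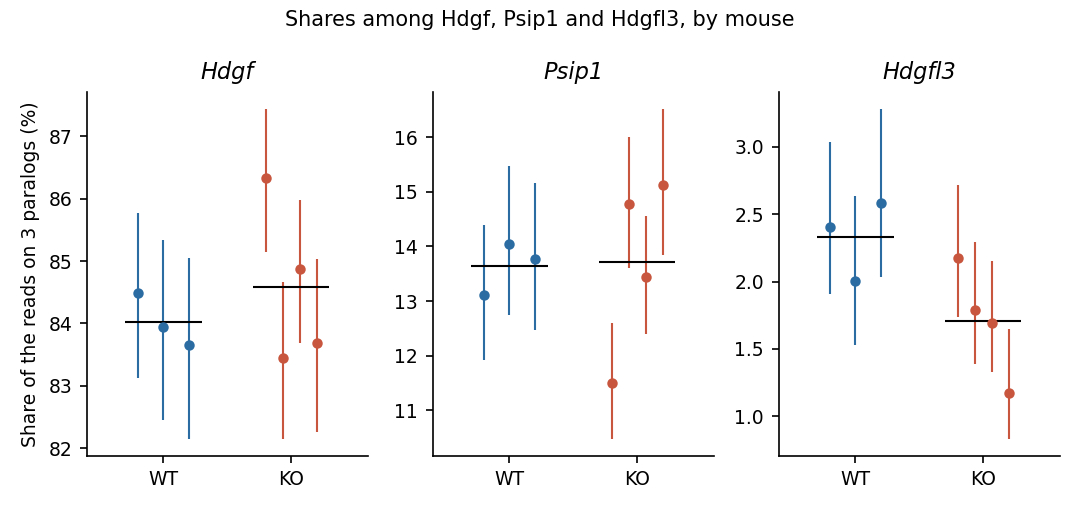
Share of the reads on *Hdgf*, *Psip1* and *Hdgfl3* taken by each gene, in percent, by mouse, on axes that do not start at 0. Bars are Wilson 95% intervals and black lines are group means. The genotypes overlap in each panel, and *Hdgfl3* is lowest in KO replicate 4 at 1.17%.

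Among partners of the IBD 0 genes were called by edgeR or DESeq2, and 0 had an unadjusted p under 0.05 by either, where edgeR gave such a p for 3.63% of all genes tested. With so few partners, a count of 0 is near that share and is not a result about them. All 7 of the listed partners were tested, of which 2 were higher and 5 lower, with a median log2 fold change of −0.07 against −0.0014 for all genes tested. *Kmt2a*, which encodes MLL, was at 132.1 ± 6.16 CPM (SD, n = 3) in WT and 126.2 ± 26.9 CPM (SD, n = 4) in KO cells. *Men1*, which encodes menin, was at 60.9 ± 12.2 CPM (SD, n = 3) and 60.9 ± 3.69 CPM (SD, n = 4). The partners with the smallest p were *Iws1*, a transcription elongation factor, and *Dbf4*, the regulatory subunit of the CDC7 kinase also called ASK. On the log2 scale *Iws1* differed by −0.22 (standard error 0.18), and *Dbf4* by −0.15 (standard error 0.15). By edgeR's quasi-likelihood test the adjusted p was 0.999 for both.

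The enzymes that write H3K36 methylation, the mark read by the PWWP domain, were not called either. All 5 of the list were tested, with 4 higher and 1 lower and a median log2 fold change of 0.03. *Nsd1* had the smallest p, at −0.18 on the log2 scale (standard error 0.15). *Nsd2* followed at 0.06 (standard error 0.14). The subunits of FACT, a histone chaperone that lets the polymerase pass nucleosomes, were *Supt16* at 0.13 (standard error 0.21) and *Ssrp1* at −0.09 (standard error 0.12) on the same log2 scale. *Supt16* was at 0.00017 without KO replicate 4 and at 0.30 without KO replicate 1. Of 14 other genes for PWWP proteins, 13 were rows and were tested, with 5 higher, 8 lower and 0 called. With 0.0178% of all genes tested called, the counts of 0 in these lists are near the background and are no result about them. *Pwwp2a*, a reader of the histone variant H2A.Z, had the smallest p of this list, with a log2 fold change of −0.40 (standard error 0.21). *Brd1*, a subunit of histone acetyltransferase complexes, followed at 0.17 (standard error 0.13). The adjusted p was 0.999 for each of these 6 genes by edgeR's quasi-likelihood test. In none of the 27 genes of the 4 lists tested did the genotypes separate without overlap, a count near the 5.16% of all genes tested and no result about the lists.

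**Figure D4:**
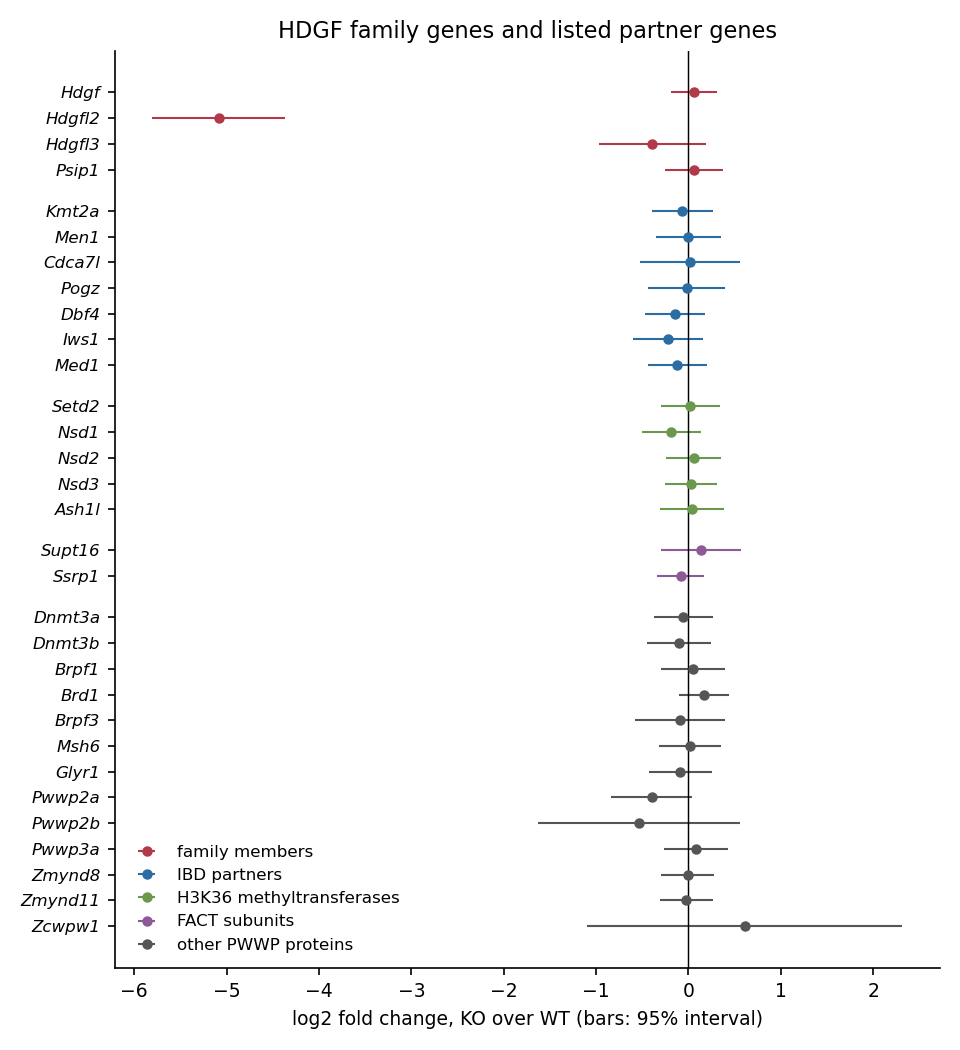
Log2 fold change of KO over WT with its 95% interval from edgeR's quasi-likelihood fit, for the 4 family genes and 27 partner genes of 4 lists, coloured by list. The interval of *Hdgfl2*, −5.80 to −4.37, lies apart, and the intervals of all other genes include 0.

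The genes whose log2(CPM + 1) followed each family gene most closely were picked out of 11264 others, as a description of 7 mice. For *Hdgf* these were *Cog7*, *P4ha1* and *Dnajc7*, with Pearson's r between 0.955 and 0.977. For *Psip1* they were *E130307A14Rik*, *Lrba* and *Mycn*, with r between 0.962 and 0.983. For *Hdgfl3* they were *Il21r*, *Cog3* and *Nxpe3*, with r between 0.967 and 0.981. For *Hdgfl2* the pattern is that of the genotypes, and the closest genes were *C1qc*, a complement gene of macrophages, *Prg2*, a granule protein of eosinophils, and *Tctex1d2*, with r between 0.950 and 0.982. No family gene was among the closest 3 of another.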

How the data were processed

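Lin- bone marrow cells of 3 WT and 4 KO mice were sequenced from the 3′ end of transcripts. According to the methods, the authors used STAR both for alignment, on GRCm38, and for gene quantification on Ensembl annotation. The deposited values are raw counts per gene symbol, with 5 tally rows, set aside here, that took 29.4% to 33.6% of reads. The QuantSeq reverse kit sets the orientation of the reads, but the strand setting used in counting is not stated, so overlapping genes on opposite strands are uncertain.

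Groups and replicate numbers came from the sample titles. Genes passing filterByExpr, 11265 in all, were scaled by TMM and tested with edgeR 4.0.16 (R 4.3.3; robust quasi-likelihood, Benjamini-Hochberg adjustment). The standard error is the log2 fold change divided by the square root of F. Calls used an adjusted p under 0.25. Single values were compared by exact permutation of mice. The edgeR, DESeq2 and limma-voom fits were tried on simulated counts, but the exact permutation tests were not. Alternatives were DESeq2 1.42.0, limma 3.58.1 (voom), other scaling and filters, a replicate block, the omission of each mouse and, chosen after the data had been seen, of *Rn45s*, the top gene in each library with 4.94% to 20.6% of reads on genes. All pairs of libraries of a genotype differed beyond sampling noise (chi-square per degree of freedom 7.65 to 48.3).

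The family genes and all lists were chosen with earlier results of these data known. By rule, the genes named were the family, *Hdgfl1*, the 2 genes of smallest p in each list, *Kmt2a*, *Men1* and the 3 genes most like each family gene. Outside this rule, *Tspoap1*, *Xist*, *Ddx3y*, *Rn45s* and the markers *Mpo*, *Vcam1* and *Adgre1* were named after their values were seen. The genes that overlap or share sequence with a family gene (*Plin4*, *Tm6sf1*, *Snapc3*, *Gm15773*) were likewise named after their values or matches were seen.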

Additional observations from a re-analysis of the deposited data

Results flagged for a closer look

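Among 23 values tested for a KO mouse far from the other 3, 1 did so. By chance alone about 1 in 20 would, here 1.15. *Dbf4*, a partner of the IBD, was at 86.9 CPM in KO replicate 3 and at 64.4 to 68.2 CPM in the other KO mice. KO replicate 3 is also the mouse with *Xist* at 0.559 CPM. No level or share of a family gene was set apart in this way.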

How the results depend on the processing

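*Hdgfl2* was called lower in each of the 14 other fits that tested it, with log2 fold changes from −5.62 to −4.86. The filter of 10 counts in every mouse leaves it out. No paralog was called in any of 15 other fits: *Hdgf* ran from 0.03 (without WT replicate 1) to 0.10 (without WT replicate 2), *Hdgfl3* from −0.51 to −0.25 and *Psip1* from −8.2e-06 (without WT replicate 1) to 0.15. The number of genes called at adjusted p under 0.25 and 0.05, 2 and 2, was 41 and 19 without a filter on low counts, 19 and 6 with DESeq2, 1 and 1 with at least 10 counts in every mouse, and 1 and 1 with the replicate block. Leaving out a mouse gave 2 to 7 and 1 to 5, with 7 and 5 without WT replicate 1, 4 and 4 without KO replicate 1, and 1 at 0.05 without WT replicate 3. The cause was not tested. The deviations from the group means had correlations of −0.02, −0.21 and −0.16 in the 3 same-numbered pairs. In pairs of unlike number they ran from −0.12 to 0.22. With so few mice these values cannot show whether the numbers pair the mice. With the replicate block the log2 fold changes were −4.91 for *Hdgfl2*, 0.07 for *Hdgf*, −0.25 for *Hdgfl3* and 0.01 for *Psip1*.

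Some genes that were not called changed sign: *Supt16* was −0.036 with the replicate block, *Men1* −0.0099 without TMM factors, −0.00051 with at least 10 counts in every mouse and −0.0015 without *Rn45s*. Over omissions of a mouse *Men1* ran from −0.14 to 0.14, *Kmt2a* from −0.22 to 0.013 and *Nsd2* from −0.034 to 0.10. Other genes kept their sign but moved: *Iws1* ran from −0.35 (without KO replicate 1) to −0.13 (KO replicate 4), *Dbf4* from −0.25 (KO replicate 3) to −0.09 (KO replicate 1), *Nsd1* from −0.31 (KO replicate 3) to −0.12 (KO replicate 2), *Ssrp1* from −0.12 (KO replicate 3) to −0.05 (KO replicate 2) and *Pwwp2a* from −0.57 (KO replicate 3) to −0.26 (KO replicate 2). The differences in share of the 3 paralogs ran from −0.026 to 0.94 percentage points for *Hdgf* and from −0.41 to 0.81 for *Psip1*. Per length, the shares of the 4 genes were 83.0% in WT and 89.1% in KO for *Hdgf*, 0.879% and 0.685% for *Hdgfl3*, and 9.31% and 9.98% for *Psip1*. Read numbers were low for *Hdgfl2* in KO mice, 2 to 13, and for *Hdgfl3*, 32 to 75 per mouse.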

Other observations

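The spread between mice was set beside the spread that counting alone gives. For *Hdgf* the coefficient of variation was 4.81% in WT and 2.24% in KO mice, where counting alone gives 2.13% and 1.90%. For *Psip1* it was 8.61% and 12.9%, where counting gives 5.29% and 4.72%. For *Hdgfl3* it was 10.7% and 23.5%, against 12.9% and 13.9%. For *Hdgfl2* it was 7.41% and 73.0%, against 7.47% and 50.9%.

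The summed CPM of 8 genes of dividing cells overlapped between the genotypes, at 2157 to 2374 in WT and 2227 to 2344 in KO mice. *Rn45s*, the ribosomal RNA precursor, took 20.6% of the reads on genes in WT replicate 2 and 4.94% in KO replicate 1, the highest and the lowest share. Without *Rn45s* in the library size, the 3 paralogs summed to 760.5 ± 37.3 CPM (SD, n = 3) in WT and 787.6 ± 19.8 CPM (SD, n = 4) in KO mice.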
